A study of Mus musculus with 4 samples.

Results

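Genes of the KAP1 and H3K9 silencing pathway were measured at the mRNA and translation levels in mouse blastocysts. The group was chosen by function as Trim28, Setdb1, Ehmt1, Ehmt2, Suv39h2, Cbx1, Cbx3, Cbx5, Daxx, and Kdm1a, and all 10 were found by symbol among the 20714 genes listed in both assays. No member symbol was listed more than once. The mRNA level came from RNA-seq and the level of ribosome-protected fragments (RPF) from Ribo-seq. Each assay had 2 replicate libraries. All 4 were wild-type and untreated. The embryos came from 4-week-old C57BL/6J females (C57BL/6N in the strain label) mated with PWK/PhJ males, were taken at the 8-cell stage, and became blastocysts in KSOM medium in vitro, after which the zona pellucida was removed. Every library was a bulk sample of embryos, and the FPKM values sum both parental alleles.

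In this pathway, KRAB zinc finger proteins bind retroelements and other targets and recruit TRIM28 (also called KAP1). TRIM28 in turn brings in SETDB1, which trimethylates lysine 9 of histone H3 (H3K9), a mark that the HP1 proteins encoded by Cbx1, Cbx3, and Cbx5 bind. Other enzymes write the same residue: EHMT2 (G9a) and its partner EHMT1 (GLP) add mono- and dimethylation, and the SUV39H enzymes trimethylate H3K9 in pericentromeric heterochromatin. DAXX deposits the histone variant H3.3 together with ATRX, and KDM1A (LSD1) is a lysine demethylase of the CoREST complex. Trim28, Setdb1, and Kdm1a are known to be needed for retroelement repression in embryos or embryonic stem cells.

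Ribosomes begin translation at the start codon, so the bases around it are shown for the 9 members whose GENCODE vM1 model holds at least 9 bases before the ATG. Ehmt2 has too short a leader in that annotation. Each line gives 9 bases before the start codon, the ATG in capitals, and the 3 bases after it.
Trim28: ggcgtgtgaATGgcg
Setdb1: ggccaaagcATGtcc
Ehmt1: gcccgggccATGgcc
Suv39h2: ctccgcaagATGgcg
Cbx1: gcgggtactATGggg
Cbx3: atttaaaaaATGgcc
Cbx5: gcacacgacATGgga
Daxx: tgaacccccATGgcc
Kdm1a: cggcccgagATGttg
Of these 9, 7 had A or G at the third base before the ATG, and Trim28 and Daxx did not. A G directly followed the ATG in 7 members, and both features occurred together in 5 members. Across 19038 genes of the same annotation, 84.1% had A or G at that place, 49.5% had the G, and 41.5% had both. The leaders of Trim28, Suv39h2, Cbx3, and Daxx each held 1 further ATG upstream of the start codon, and 49.9% of those genes held at least 1.

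The libraries were checked against markers before the members were examined. All 6 trophectoderm markers were above 1 FPKM on average in both assays. Of 4 epiblast markers, all were above 1 FPKM on average in RPF and 3 in mRNA, where Sox2 had 0.786 FPKM. The 4 epiblast markers summed to 144 and 57.7 FPKM of mRNA in replicates 1 and 2, and to 707 and 846 FPKM of RPF, so the RNA-seq replicates differed more. In bulk embryos, fewer cells of a type and less RNA per cell cannot be told apart. Of 4 primitive endoderm markers, all were above 1 FPKM in RPF and 1 in mRNA (Gata6, 9.93 FPKM). Mean mRNA was 0.0287 FPKM for Gata4, 0.102 for Sox17, and 0.848 for Pdgfra, beside 17.6, 30.1, and 14.7 FPKM of RPF. The labels do not say that both assays used the same embryos. A difference between the embryos and one between mRNA and RPF therefore cannot be told apart. The 4 cumulus cell markers were listed at 0 in all 4 libraries, and oocyte markers did not exceed 0.566 FPKM of mRNA or 1.83 FPKM of RPF on average. Whole-fragment steps in the FPKM values implied 5443270 and 5160740 fragments in the RNA-seq replicates but 533861 and 484363 in the Ribo-seq replicates. The RPF values therefore rest on about as many footprints as are given below, and intervals from them cover counting error only. Between replicates, Spearman's rho over the 20714 genes was 0.940 in RNA-seq and 0.898 in Ribo-seq, and genes are not independent replicates.

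The members spanned a wide range in both assays, with the HP1 genes and Trim28 at the top and Suv39h2 at the bottom (see the plot of levels by library). The mean mRNA level ran from 1.105 to 69.1 FPKM with a median of 10.6 FPKM, and the mean RPF level from 4.79 to 499.8 FPKM with a median of 43.0 FPKM. For the 8327 genes with a mean of at least 1 FPKM in both assays, the medians were 8.01 FPKM of mRNA and 25.05 FPKM of RPF. All 10 members were among these genes.

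**Figure D1:**
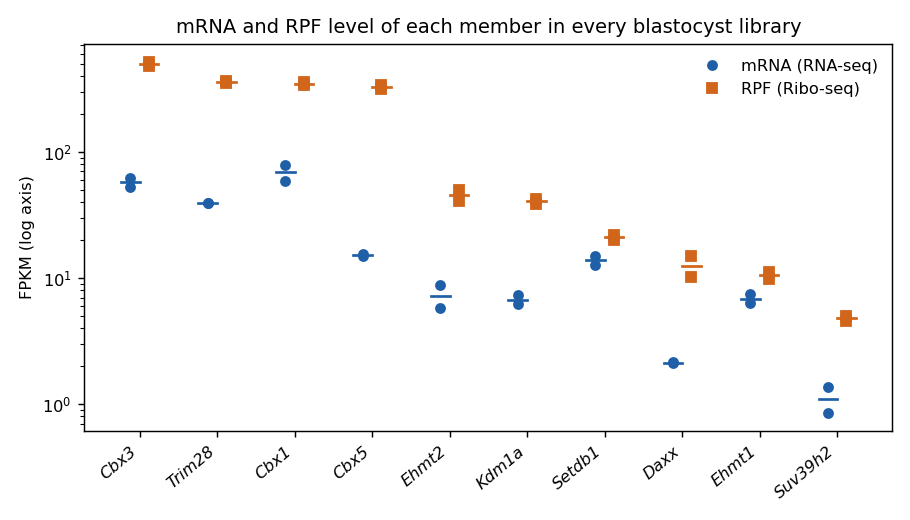
FPKM (log axis) of each member in the 2 RNA-seq libraries (blue circles) and the 2 Ribo-seq libraries (orange squares), ordered by mean RPF, with short lines at the means. Cbx3, Trim28, Cbx1, and Cbx5 have RPF levels between 315 and 521 FPKM in every Ribo-seq library, and the other 6 members have at most 50.1 FPKM.

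Trim28, the corepressor itself, lies on chromosome 7 from 13609501 to 13616384 (NCBIM37, the assembly of mm9). Its mRNA level was 39.5 and 39.3 FPKM in replicates 1 and 2, and its RPF level was 368 and 355 FPKM. The RPF values rest on 452 and 396 footprints over a coding sequence of 2505 bases. Both assays were thus close between replicates, and every RPF value was at least 9.0 times every mRNA value. Trim28 had more mRNA than 82.0% of the tested genes and more RPF than 91.6%. None of its 2478 coding windows of 28 bases, about the length of a footprint, was found at a second place in the genome. The 3 genes nearest to Trim28 over the 4 libraries on the log2(FPKM + 1) scale were Cox16 (Euclidean distance 0.227), Mpdu1 (0.231), and Hnrnpdl (0.248).

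Setdb1 (chromosome 3, 95127447 to 95161124), the methyltransferase that TRIM28 recruits, had 12.8 and 15.1 FPKM of mRNA in replicates 1 and 2. Its RPF level was 22.1 and 19.9 FPKM, from 43.9 and 35.9 footprints. Setdb1 thus had more mRNA than 63.0% of the tested genes but more RPF than 45.4%. Within the libraries, Trim28 exceeded Setdb1 3.09- and 2.61-fold at the mRNA level and 16.7- and 17.8-fold at the RPF level.

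Ehmt2 and Ehmt1 encode the partners of one H3K9 mono- and dimethyltransferase complex. Ehmt2 (chromosome 17, 35035414 to 35050997) had 8.75 and 5.74 FPKM of mRNA and 50.1 and 40.7 FPKM of RPF in replicates 1 and 2. Ehmt1 (chromosome 2, 24646289 to 24775129) had 6.33 and 7.42 FPKM of mRNA and 11.1 and 9.92 FPKM of RPF. At the mRNA level the order of the genes differed between the replicates, with Ehmt2 at 1.38 and 0.774 times Ehmt1. At the RPF level Ehmt2 was 4.51 and 4.11 times Ehmt1 and made up 81.9% and 80.4% of the RPF of the pair. The counts behind this were 96.1 and 70.9 footprints for Ehmt2 and 21.9 and 17.7 for Ehmt1, on coding sequences of 3792 and 3891 bases. Their coding sequences were 58.9% identical over all alignment columns, gaps included. The most similar windows of 28 bases, shown with the bases that differ in capitals, differed at 2.
Ehmt1: tgctgTccTggctgcggctacttctgca
Ehmt2: tgctgCccGggctgcggctacttctgca

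Suv39h2 (chromosome 2, 3373087 to 3392303), which encodes an H3K9 methylase of constitutive heterochromatin, was the lowest member in both assays. Its mRNA level was 1.36 and 0.847 FPKM in replicates 1 and 2, and its RPF level was 4.555 and 5.02 FPKM. The RPF values correspond to 3 footprints in each library, as few as are counted as a floor here, with exact Poisson 95% intervals of 0.939 to 13.3 and 1.04 to 14.7 FPKM. Its paralogue Suv39h1 had 5.33 and 5.77 FPKM of mRNA and 27.1 and 19.9 FPKM of RPF, and so made up 79.6% and 87.2% of the mRNA of the pair and 85.6% and 79.8% of the RPF. Suv39h1 was thus the higher gene of the pair in every library. The coding sequences of these paralogues were 51.7% identical over alignment columns, gaps included, and their most similar windows differed at 1 base, in capitals.
Suv39h1: cacctacctctttgacctggactacgTg
Suv39h2: cacctacctctttgacctggactacgAg

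The 3 HP1 genes encode readers of methylated H3K9. Cbx1 (HP1 beta, chromosome 11, 96650441 to 96669954) had the highest mean mRNA level of the 10 members, with 79.0 and 59.2 FPKM in replicates 1 and 2. Its RPF level was 357 and 338 FPKM, from 68.1 and 58.6 footprints. Cbx3 (HP1 gamma, chromosome 6, 51420359 to 51433703) had 62.3 and 52.3 FPKM of mRNA. Its RPF level of 521 and 479 FPKM, from 97.7 and 81.6 footprints, was the highest deposited value of the 10 members in both libraries. Cbx5 (HP1 alpha, chromosome 15, 103021975 to 103070247) had 14.9 and 15.6 FPKM of mRNA but 336 and 315 FPKM of RPF, from 67.4 and 57.4 footprints. Cbx5 therefore contributed 9.54% and 12.3% of the HP1 mRNA and 27.7% and 27.8% of the HP1 RPF, whereas Cbx1 contributed 50.6% and 46.6% of the mRNA and 29.4% and 29.9% of the RPF. The share of Cbx3 was 39.9% and 41.2% of the mRNA and 42.9% and 42.3% of the RPF.

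The HP1 coding sequences are alike enough that their reads had to be told apart, so the closest stretches are shown. Over alignment columns of the coding sequences, gaps included, Cbx1 and Cbx5 were 66.0% identical, Cbx1 and Cbx3 64.8%, and Cbx3 and Cbx5 61.0%. In the most similar pair of 28-base windows, Cbx1 and Cbx5 differed at 3 bases, and each of the other pairs differed at 4. Capitals mark the bases that differ within each pair.
Cbx1 with Cbx5: agaAgaGgaAgaggaatatgtggtggaa
Cbx5 with Cbx1: agaGgaTgaGgaggaatatgtggtggaa
Cbx1 with Cbx3: aaggtggaAtatCtTctAaagtggaagg
Cbx3 with Cbx1: aaggtggaGtatTtCctGaagtggaagg
Cbx3 with Cbx5: gaGgcGaacAtgaagtgtccTcagattg
Cbx5 with Cbx3: gaAgcTaacGtgaagtgtccAcagattg
The authors allowed at most 2 mismatches per Ribo-seq read, fewer than separate any of these windows of the HP1 genes. The closest windows of Ehmt1 and Ehmt2 (2 differences) and of Suv39h1 and Suv39h2 (1 difference) were within that limit. What this did to their values was not tested. Copies elsewhere in the genome are a separate matter. For Cbx3, 94.7% of the 525 coding windows were found at more than 1 place, against 8.66% for Cbx1, 8.62% for Setdb1, 3.28% for Cbx5, and at most 1.41% for the other 6 members. The Cbx3 window with the most places, found at 12, covered its coding bases 210 to 237.
Cbx3: agaattaattgaagcatttcttaattct
Over the authors' limit of 20 places per read were 43 of 3765 windows in Ehmt2, 9 of 2196 in Daxx, and none in Cbx3. The value of Cbx3 is therefore uncertain, since reads could be divided among copies, and the part of these copies in its level was not tested.

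Daxx (chromosome 17, 34046359 to 34052534), the H3.3 chaperone, had 2.155 and 2.11 FPKM of mRNA in replicates 1 and 2. Its RPF level was 14.8 and 10.2 FPKM, from 16.0 and 9.99 footprints, with exact Poisson 95% intervals of 8.47 to 24.1 and 4.89 to 18.8 FPKM that overlap. Atrx, its partner, had 6.89 and 6.82 FPKM of mRNA and 12.1 and 14.5 FPKM of RPF. Atrx thus had more mRNA than Daxx in both RNA-seq libraries, while at the RPF level the order of these genes differed between the replicates.

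Kdm1a (chromosome 4, 136106455 to 136158638), the demethylase, had 6.21 and 7.28 FPKM of mRNA and 38.8 and 42.3 FPKM of RPF, from 50.2 and 49.7 footprints. Its levels were close to those of Ehmt2 in both assays. In the order of mRNA levels, the libraries of neighbours overlapped for Cbx1 and Cbx3, for Cbx5 and Setdb1, and for Ehmt2, Ehmt1, and Kdm1a. In the order of RPF levels (Cbx3, Trim28, Cbx1, Cbx5, Ehmt2, Kdm1a, Setdb1, Daxx, Ehmt1, Suv39h2), they overlapped for Trim28 and Cbx1, for Ehmt2 and Kdm1a, and for Daxx and Ehmt1.

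The place of the HP1 genes in that order depended on the length used. The whole-fragment steps fitted an effective length that assumes fragments of 200 bases on average (SD 80 bases), far longer than a footprint, which raises the FPKM of short coding sequences. For coding sequences of 552 to 576 bases, the full length exceeded the effective length 1.57-fold in Cbx3, 1.56-fold in Cbx1, and 1.53-fold in Cbx5, against 1.09-fold in Trim28. Per full coding length, the RPF level of Trim28 was 338 and 327 FPKM and that of Cbx3 was 331.5 and 305 FPKM, so that their libraries overlapped. Cbx1 then had 229 and 217 FPKM and Cbx5 had 219 and 206 FPKM, both below Trim28 in every library.

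Next, RPF was compared with mRNA to ask which members had more ribosome occupancy than their mRNA level would give for the median gene. The difference of log2(FPKM + 1) between Ribo-seq and RNA-seq was centred on its median over the 8327 tested genes, which was 1.26 before centring, and fitted with limma. A gene passed with a Benjamini-Hochberg adjusted p under 0.05 and a centred difference of at least 1 in size. Cbx5, Trim28, and Cbx3 passed with more RPF than the median gene, and no member passed with less. Setdb1 and Ehmt1, with values below the median gene, had an unadjusted limma p under 0.05. Both a value below the median gene and such a p were found for 14.2% of all 8327 tested genes. Of all tested genes, 9.13% passed above (760 genes) and 3.24% passed below (270 genes), and quantile normalization gave 618 above and 574 below. Nothing in the labels places the libraries in separate cultures or litters, so these p-values measure the spread between libraries, which may be technical.

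**Figure D2:**
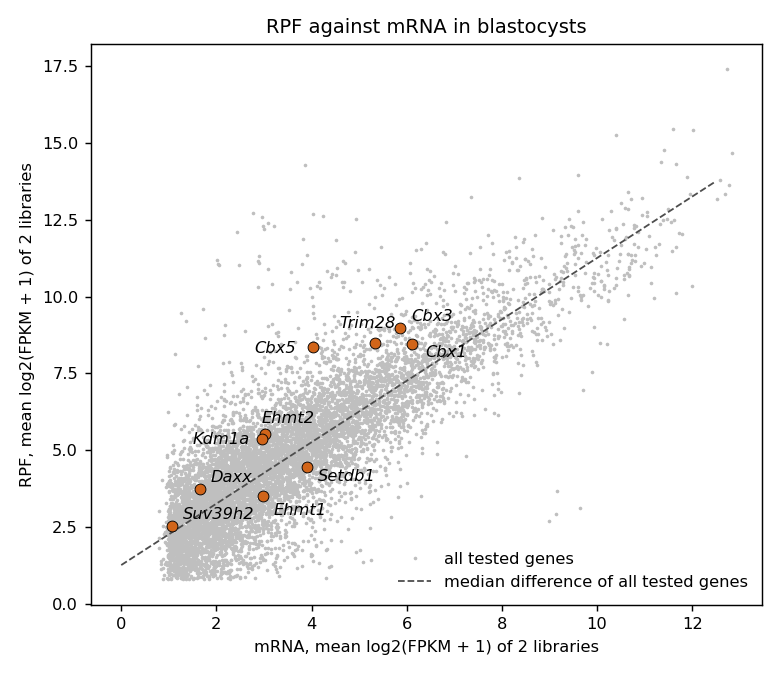
Mean log2(FPKM + 1) of RPF (y axis) against that of mRNA (x axis) for the 8327 tested genes (grey) and the 10 members (orange), with a dashed line at the median difference of 1.26. Cbx5, Trim28, and Cbx3 lie farthest above the line among the members, and Setdb1 and Ehmt1 lie below it.

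Cbx5 had the largest difference of the 10 members, at 3.07 ± 0.24 (SE, 2 libraries per assay; limma adjusted p = 0.0152), or 8.40 times the RPF to mRNA ratio of the median gene. This was higher than the difference of 98.0% of the tested genes. Its RPF was 20.2 to 22.6 times its mRNA over the 4 pairs of libraries. In GENCODE vM1 the longest model of Cbx5 has 8803 bases, of which 8097 are 3′ UTR. Centred on genes of like transcript length in 10 bins, a setting added after the data were seen, its difference was 3.12. That setting removed only the median of each bin (-0.0568 in the bin of longest transcripts). An effect of length particular to Cbx5 was therefore not tested.

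For Trim28 the difference was 1.90 ± 0.23 (SE; limma adjusted p = 0.0263), or 3.74 times the ratio of the median gene and higher than that of 93.6% of genes. Cbx3 followed with 1.85 ± 0.25 (SE; limma adjusted p = 0.0300), or 3.59 times the median gene. With a pseudocount of 0.1, Cbx3 no longer passed (limma adjusted p = 0.0511). These 3 genes passed with either Ribo-seq library left out (limma adjusted p from 0.00315 to 0.0144). Without either RNA-seq library, 0 genes passed in the whole table, and the adjusted p of these 3 genes lay between 0.294 and 0.311 in limma, while their differences lay between 1.71 and 3.09. An unadjusted p under 0.05 was then found for 1337 genes without replicate 1 and 1269 genes without replicate 2, and the lone RNA-seq library was assumed to vary like the Ribo-seq libraries. Per full coding length, a setting added after the data were seen, Cbx5 (2.72), Trim28 (2.05), and Cbx3 (1.46) passed (limma adjusted p = 0.0193, 0.0242, and 0.0406).

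Ehmt2, Kdm1a, and Cbx1 also had centred differences of at least 1 but did not pass. The difference was 1.25 ± 0.32 for Ehmt2 (SE; limma adjusted p = 0.0777), 1.17 ± 0.25 for Kdm1a (SE; limma adjusted p = 0.0584), and 1.07 ± 0.28 for Cbx1 (SE; limma adjusted p = 0.0794). In all, 6 of the 10 members had a difference of at least 1, as did 19.8% of the tested genes. When the test was limited to genes with at least 5 FPKM in both assays, these 3 genes passed too (limma adjusted p = 0.0465, 0.0303, and 0.0470). In that setting 790 of 5083 genes passed above, beside 760 of 8327 in the main fit, and Suv39h2 and Daxx were not tested. With each library left out in turn, the difference lay between 0.969 and 1.52 for Ehmt2 and between 0.979 and 1.25 for Kdm1a. Kdm1a passed per full coding length as well (1.32, limma adjusted p = 0.0442), while Cbx1 had 0.69 there (limma adjusted p = 0.157).

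Daxx had a difference of 0.83 ± 0.29 (SE; limma adjusted p = 0.135) and Suv39h2 one of 0.21 ± 0.27 (SE; limma adjusted p = 0.614), and neither passed. Setdb1 and Ehmt1 were the 2 members with values below the median gene. Their differences were -0.70 ± 0.25 for Setdb1 (SE; limma adjusted p = 0.138) and -0.71 ± 0.25 for Ehmt1 (SE; limma adjusted p = 0.133), with 95% intervals of -1.39 to -0.01 and -1.40 to -0.02. Without centring both values were above 0 (0.56 and 0.55), because RPF FPKM exceed mRNA FPKM in most genes. The median difference of the 10 members was 1.12, beside 0 for all tested genes by construction.

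**Figure D3:**
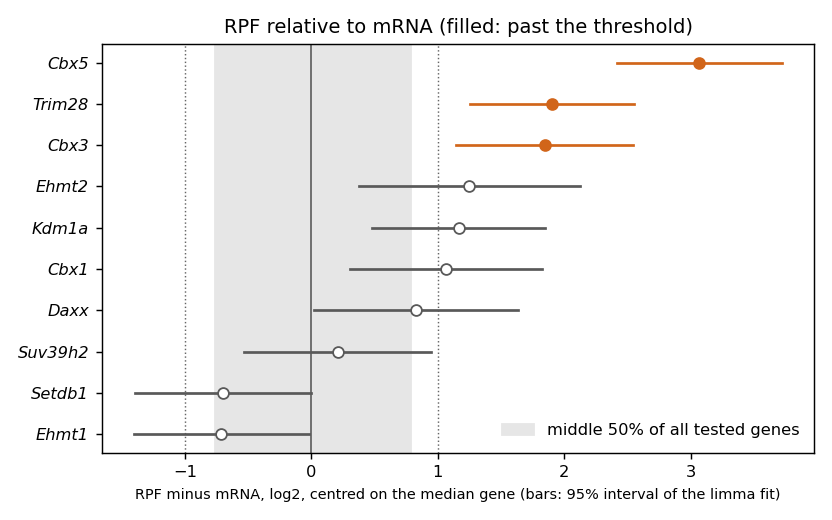
Centred log2 difference of RPF minus mRNA for each member, with 95% intervals of the limma fit. Filled points passed the threshold, dotted lines mark differences of -1 and 1, and the grey band holds the middle 50% of tested genes. Cbx5 stands at 3.07, Trim28 and Cbx3 stand at 1.90 and 1.85, and the interval of Suv39h2 crosses 0.

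A ratio between 2 genes within a library does not depend on a factor common to the whole library, so related genes were also compared this way in 6 pairs. It still depends on the lengths behind FPKM, of transcripts in RNA-seq and of coding sequences in Ribo-seq. In GENCODE vM1 the models of Cbx5 and Cbx1 have 8803 and 1251 transcript bases but 576 and 558 coding bases. In 5 pairs, the ratios in the 2 Ribo-seq libraries did not overlap those in the 2 RNA-seq libraries. The HP1 pairs share genes and are not independent, and the share of all gene pairs that separate this way was not computed. The log2 ratio of Cbx5 to Cbx1 was 2.07 higher in RPF than in mRNA, that of Ehmt2 to Ehmt1 was 2.06 higher, and that of Trim28 to Setdb1 was 2.60 higher. For Cbx5 to Cbx3 it was 1.29 higher, and for Cbx3 to Cbx1 it was 0.784 higher. The ratio of Suv39h1 to Suv39h2 overlapped between the assays. An exact two-sided permutation test over the 4 libraries gave p = 0.333 in each of the 5 pairs, the smallest p that 2 libraries against 2 allow (adjusted p = 0.40 over the 6 pairs), and p = 1.0 for Suv39h1 to Suv39h2. The design therefore cannot place these differences beyond the spread of the libraries by that test.

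**Figure D4:**
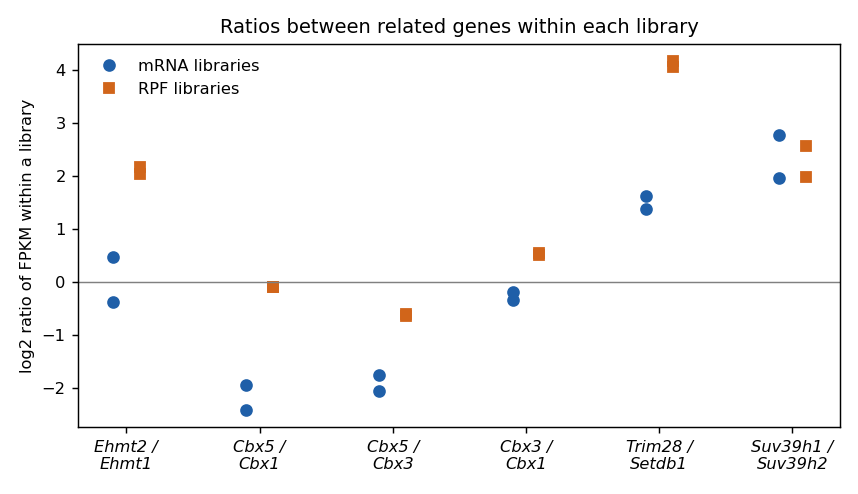
Log2 ratio of FPKM between related genes within each library, for the 2 RNA-seq libraries (blue circles) and the 2 Ribo-seq libraries (orange squares). The Ribo-seq points lie above the RNA-seq points in 5 pairs, by 0.784 to 2.60 on average, and the points overlap for Suv39h1 to Suv39h2.

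Around the 10 members, a wider list of 66 genes of the same pathway was examined in 9 groups. All 66 symbols were found, and 56 passed the filter of a mean of 1 FPKM in both assays. Of these 56, 6 passed above and 1 passed below, beside 9.13% and 3.24% of all tested genes. The median difference of the 56 genes was 0.61, and that of the 10 members was 1.12. At an unadjusted limma p under 0.05, 21 of the 56 were above and 6 below the median gene, beside 21.7% and 14.2% of all tested genes. The 7 genes past the threshold kept the direction of their differences with each library left out, where 1 assay rests on 1 library.

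Among the partners of TRIM28, Zfp809, a KRAB zinc finger protein known to silence a class of retroviruses, had the most mRNA of its group, with 11.4 and 12.3 FPKM. Zfp57, the zinc finger protein that maintains imprints, had the highest mean RPF, with 19.5 and 41.0 FPKM, although Zfp809 was above it in replicate 1 (23.9 FPKM) and below it in replicate 2 (33.5 FPKM). In limma, 0 of the 5 genes of this group passed, and 2 had an unadjusted p under 0.05, both above the median gene (21.7% of all tested genes). Of 7 tested KAP1 cofactors, Smarcad1, a chromatin remodeller, passed above with a difference of 1.53 ± 0.26 (SE; limma adjusted p = 0.0422). It did not pass with a pseudocount of 0.1 (limma adjusted p = 0.0650) or with quantile normalization (1.02; limma adjusted p = 0.0706). It was also the most abundant cofactor in both assays, with 68.2 and 80.5 FPKM of mRNA and 485 and 552 FPKM of RPF.

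In the group of other H3K9 methyltransferases and partners, Atf7ip, the partner that stabilises SETDB1, was the 1 gene of the list that passed below. Its mRNA level was 23.5 and 15.4 FPKM, the highest of this group, and its RPF level was 10.05 and 4.98 FPKM. The difference was -2.56 ± 0.44 (SE; limma adjusted p = 0.0430), lower than that of all but 1.71% of tested genes. Atf7ip did not pass with a pseudocount of 0.1 (limma adjusted p = 0.0634), when centred within bins of coding length, or without centring, where its difference was -1.30 (limma adjusted p = 0.0714). Setdb1 and Atf7ip thus both had values below the median gene, although Setdb1 did not pass. In the HUSH complex, which acts with SETDB1 on retroelements, Pphln1 passed above with 1.55 ± 0.27 (SE; limma adjusted p = 0.0431). It did not pass with a pseudocount of 0.1 (limma adjusted p = 0.0650), quantile normalization (0.0617), or centring within bins of transcript length (0.0533). The group median was -0.26.

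Among DAXX and histone deposition partners, 0 of 10 passed in limma, and 4 had an unadjusted p under 0.05, with 2 above and 2 below (21.7% and 14.2% of all tested genes). H3f3a had the most mRNA of this group (397.5 and 395.5 FPKM) and H3f3b the most RPF (961 and 1029 FPKM). Both encode H3.3, and their values are uncertain where other copies of the sequence take reads. In the SUMO pathway, which modifies TRIM28 and helps it recruit SETDB1, Sumo3 passed above with 2.44 ± 0.25 (SE; limma adjusted p = 0.0228). Its mRNA level was 23.1 and 25.55 FPKM and its RPF level 300.5 and 357 FPKM. Sumo2 had the most mRNA of this group, with 203 and 240 FPKM.

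Among 6 tested KDM1A partners, Hmg20b had the highest mean mRNA, with 6.93 and 12.75 FPKM, and its RPF level was 42.3 and 38.4 FPKM. Of 5 tested H3K9 demethylases, 0 passed in limma, and 2 had an unadjusted p under 0.05, both above (21.7% of all tested genes). Kdm3b had the most mRNA (3.61 and 5.05 FPKM) and RPF (31.2 and 31.4 FPKM) of that group. Among HP1 partners and readers, Senp7, a SUMO protease, passed above with 1.49 ± 0.26 (SE; limma adjusted p = 0.0442), but not with a pseudocount of 0.1 (limma adjusted p = 0.0572). Lbr, the lamin B receptor that binds HP1, had the most mRNA of this group (22.6 and 24.7 FPKM), and Uhrf1, which reads methylated H3K9 and hemimethylated DNA, had the highest mean RPF (78.4 and 47.5 FPKM, beside 79.1 and 39.3 FPKM for Lbr).

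**Figure D5:**
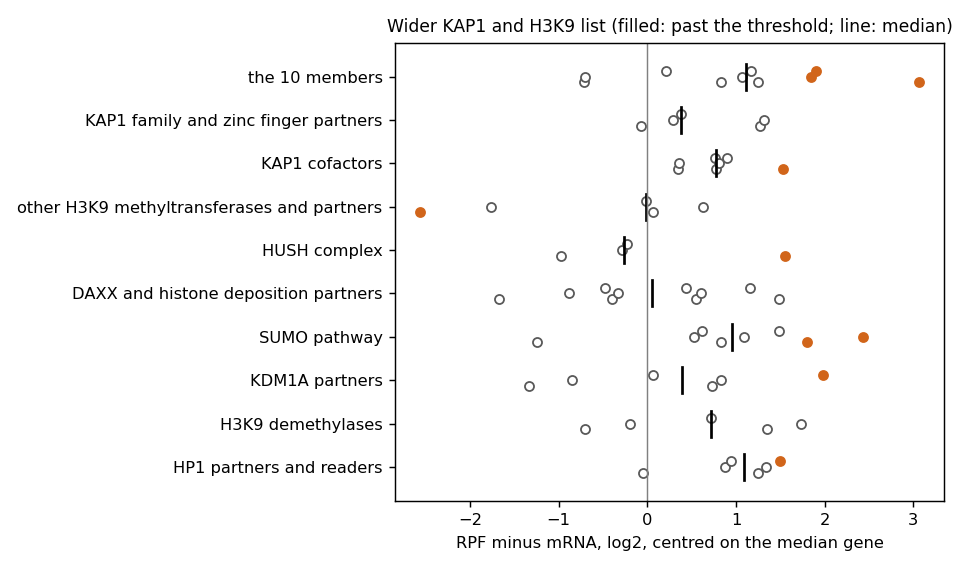
Centred log2 difference of RPF minus mRNA for the 10 members and for the 56 tested genes of the wider list by group, with a line at each group's median and filled points for genes past the threshold. The members' median of 1.12 lies to the right of the 0 line, and Atf7ip at -2.56 is the 1 filled point to its left.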

How the data were processed

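The authors deposited FPKM per gene and library. Per the study's methods and the labels, they trimmed reads (Trim Galore 0.4.2 for RNA-seq, cutadapt 1.14 for Ribo-seq), discarded rRNA reads of Ribo-seq with Bowtie2 2.2.2, mapped to mm9 with STAR 2.5.3a, and ran Cufflinks 2.2.1 on transcripts (RNA-seq) or coding sequences (Ribo-seq). The members and lists were chosen with earlier results of these data known. A repeated symbol took its highest value. Levels were log2(FPKM + 1). Ribo-seq minus RNA-seq was fitted with limma 3.58.1 in R 4.3.3, which was tested on simulated data. Named genes were the 10 members, the genes of the wider list past the threshold, the highest mRNA and RPF of each group, and the 3 genes nearest to Trim28. Some genes that the rule names are not reported here. Suv39h1 and Atrx were named as partners after their values were seen. Footprints came from whole-fragment steps: 84.0% and 82.7% of 600 low Ribo-seq values, and 51.0% and 50.3% in RNA-seq, lay within 0.1 of a whole fragment, and the lowest well-scoring total was kept. Models were the longest coding sequence in GENCODE vM1 on NCBIM37. Windows were counted on that genome with Python 3.11.15, and identity was computed with Biopython 1.88. Alternatives were the pseudocount, filters, repeats, centring, quantile normalization, a variance trend, the replicate block, each library left out, and, chosen after seeing the data, coding and transcript length.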

Additional observations from a re-analysis of the deposited data

How the results depend on the processing

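The count of genes with RPF above mRNA (760) was 413 with a pseudocount of 0.1, 1961 without a filter (where the median difference was 0, so that centring moved nothing), 4113 without centring, and 27 with the replicate number as a block. The count below (270) was 130, 123, 65, and 1 in the same order, 515 with a filter of 5 FPKM, 574 with quantile normalization, and 477 with a variance trend. Leaving out 1 library gave between 0 and 1486 genes above and between 0 and 1601 below, with 0 in both directions without either RNA-seq replicate. Over all tested genes, 790 of 5083 passed above with a filter of 5 FPKM and 1134 of 8327 with a variance trend. Without a filter this was 1961 of 20714 genes, and without centring 4113 of 8327. The number of all genes passing above was thus larger in each of these settings than in the main fit (760 of 8327). Of the members, 3 passed above. This count was 5 without a filter, 6 with a filter of 5 FPKM, 8 without centring, 5 with a variance trend, 0 with the replicate block, and between 0 and 4 with 1 library left out. The cause was not tested. With the block, the limma adjusted p was 0.0753 for Cbx5, 0.0930 for Trim28, and 0.0934 for Cbx3. Replicate deviations were nearly uncorrelated between the assays (0.00994 over genes), and the labels do not say whether same-numbered libraries share embryos. Without a filter and without centring, Setdb1 was 0.56, Ehmt1 0.55, Zfp809 1.19, and Lbr 1.21. With either Ribo-seq replicate left out, Zfp809 lay between -0.43 and 0.14, Zfp57 between -0.26 and 0.87, and Lbr between -0.57 and 0.32. Zfp809 was 0.27 when centred within bins of transcript length. H3f3b was -0.12 with quantile normalization and -0.086 per full coding length, where Sumo2 was -0.071 and Lbr 0.049. These length settings were chosen after seeing the data. Ribo-seq depth limits Suv39h2 and Daxx most.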
